A study of Mus musculus with 10 samples.

Results

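Rab GTPases are the small GTP-binding proteins that give each membrane compartment of the cell its identity, and the table of gene expression from bEnd.3 cells held 58 of them among 27024 rows with a gene name. bEnd.3 is an immortalised mouse brain endothelial line of wild-type genotype. The 58 genes were chosen by name alone, as every row whose symbol was Rab followed by a number and at most a letter and a further number, so proteins that only bind Rabs were not counted. The mouse annotation GENCODE vM21 (GRCm38) held all 58 symbols. They were placed by their textbook compartment into early endosome (7 genes), recycling endosome (9), late endosome and lysosome (9), secretion (13), endoplasmic reticulum and Golgi (15) and other or unassigned (5).

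RNA was sequenced from 10 samples of these cells. The 5 saline samples (replicates 1, 2, 3, 4 and 5) were given saline in growth medium, and the 5 StcE samples (replicates 1, 2, 3, 5 and 6) were given 5 nM StcE in growth medium, both for 16 h. StcE is a mucinase, a bacterial protease that cleaves mucin-domain glycoproteins, the densely O-glycosylated molecules of the endothelial surface layer. The design therefore asks how the mRNAs of the traffic machinery differ after mucins are cut from a cultured endothelial cell. No samples given a catalytically inactive StcE were analysed here. The sources used here do not say whether each sample was a separate culture, so the p-values measure the spread between these samples, which may be technical.

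A Rab cycles between a GDP-bound form in the cytosol and a GTP-bound form on a membrane. Exchange factors load it with GTP on its own compartment, the GTP-bound form recruits effectors such as tethers, motors and coats, GTPase-activating proteins end the cycle, and the GDP dissociation inhibitors take the inactive Rab off the membrane. In brain endothelium, the balance between uptake, recycling, degradation and release decides which surface proteins are kept and how much plasma cargo crosses the cell.

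Rabs hold on to membranes by prenyl lipids attached to cysteines at the very end of the protein, so the last codons are shown for *Rab3d* and *Rab32*, which fell after StcE, and for 5 other Rabs as examples of 4 of the 6 kinds of ending. The ending of *Rab18*, which also fell, is not shown. The sequences are the last 30 coding bases before the stop codon, 5′ to 3′ on the coding strand, from GENCODE vM21 transcripts, with the cysteine codons (TGC or TGT) of the last 5 codons in capitals. The pair *Rab3d* and *Rab3a*, both of regulated exocytosis, share a cysteine-any-cysteine ending, as does *Rab7* of late endosomes, whereas *Rab32* ends in adjacent cysteines like *Rab1b*. In *Rab11a* further codons follow the cysteine pair, and *Rab13* carries a single cysteine.
Rab3d, chr9:21910487-21910516, minus strand: ccacccccacagccgagcagcTGCagcTGT
Rab3a, chr8:70758056-70758085, plus strand: caggcgccacctcatcaggatTGTgccTGC
Rab32, chr10:10546305-10546334, minus strand: cccacaacaaagcccaggtcccagTGCTGC
Rab1b, chr19:5100381-5100410, minus strand: cctgtgaagcctgctagcggtggcTGCTGC
Rab11a, chr9:64716852-64716881, minus strand: aagccaaaggtgcagTGCTGTcagaacatc
Rab7, chr6:88000438-88000467, minus strand: gccaaggcctccgcagaaagcTGCagtTGT
Rab13, chr3:90225551-90225580, plus strand: gacaagaagaagaacaagTGCttgttaggc

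Across the 58 Rabs, 20 ended in cysteine-any-cysteine and 14 in adjacent cysteines. A cysteine pair followed by 1, 2 or 3 further codons was found in 3, 6 and 6 Rabs, and the other 9 had a single cysteine. The 3 Rabs that fell after StcE were spread over these endings, with *Rab3d* among the 10 tested genes of the cysteine-any-cysteine type, *Rab32* among the 11 with adjacent cysteines and *Rab18* among the 7 with a single cysteine. No ending held more than 1 Rab past the threshold, and 3 such Rabs over 6 endings are too few to tell the endings apart. These were 10%, 9.09% and 14.3% of the tested Rabs with each ending, where 6.41% of all tested genes fell.

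The values are FPKM, the fragments of a gene divided by its length and by sequencing depth, which the authors had normalised between samples. Recovered fragments per sample ranged from 21922594 to 29017310 in saline and from 21864604 to 33147402 in StcE, and samples of the same group differed by more than counting error (chi-square per degree of freedom 3.05 to 8.42). All 8 endothelial markers examined (*Pecam1*, *Cdh5*, *Kdr*, *Tek*, *Erg*, *Esam*, *Cldn5* and *Emcn*) had a mean FPKM of at least 1, with a summed FPKM of 1574.3 to 1703.0 in saline and 1496.7 to 1579.0 in StcE, so the sum was lower after the treatment with a narrow overlap. Its part in the Rab results was not tested. Of the markers of other cells, only *Cd68* of the leukocyte list (1 of 5; summed FPKM 19.4 to 21.7 in saline and 17.7 to 21.1 in StcE) and *Acta2* of the mural list (1 of 5; 2.06 to 5.1 and 2.66 to 4.54) reached FPKM 1. None of 3 epithelial and 6 glial and neuronal markers did, and their sums were at most 0.262 in any sample, although no marker in the table was at 0 in every sample. In bulk RNA, fewer cells of a type and less RNA per cell cannot be told apart.

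The most abundant Rab mRNAs belonged to housekeeping steps of the endosomal and Golgi routes. *Rab1b*, which acts between the endoplasmic reticulum and the Golgi, had the highest level with an FPKM of 148.8 ± 3.59 (SD, n = 5) in saline and 145.0 ± 2.65 in StcE. It was followed by *Rab5c* of early endosomes (145.3 ± 1.54 and 141.3 ± 2.74), *Rab7* of late endosomes (130.0 ± 1.69 and 126.0 ± 3.66) and *Rab2a* of the Golgi (85.7 ± 2.44 and 81.3 ± 1.91). The ranges of *Rab1b* and *Rab5c* overlapped within each group, while those of *Rab7* and *Rab2a* did not overlap with each other or with the pair above them. The leading Rabs of recycling and of secretion were lower, at 54.2 ± 1.32 and 55 ± 2.26 for *Rab11a* and 54.8 ± 0.96 and 53.0 ± 2.4 for *Rab10*.

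By route, the endoplasmic reticulum and Golgi Rabs took the largest share of the summed Rab FPKM, 36.5% in saline and 36.4% in StcE. The early endosome Rabs took 21.7% and 22.0%, the late endosome and lysosome Rabs 17.9% and 17.8%, the recycling Rabs 11.6% and 11.7%, and the secretory Rabs 10.0% and 9.84%. The order of the routes was the same in both groups. The summed FPKM of all 58 Rabs was 1160.0 to 1186.8 in the saline samples and 1107.7 to 1162.2 in the StcE samples, and StcE replicate 2 alone lay above the lowest saline sample. The mean sum was 1169.5 ± 10.9 in saline and 1137.8 ± 20 in StcE.

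**Figure D1:**
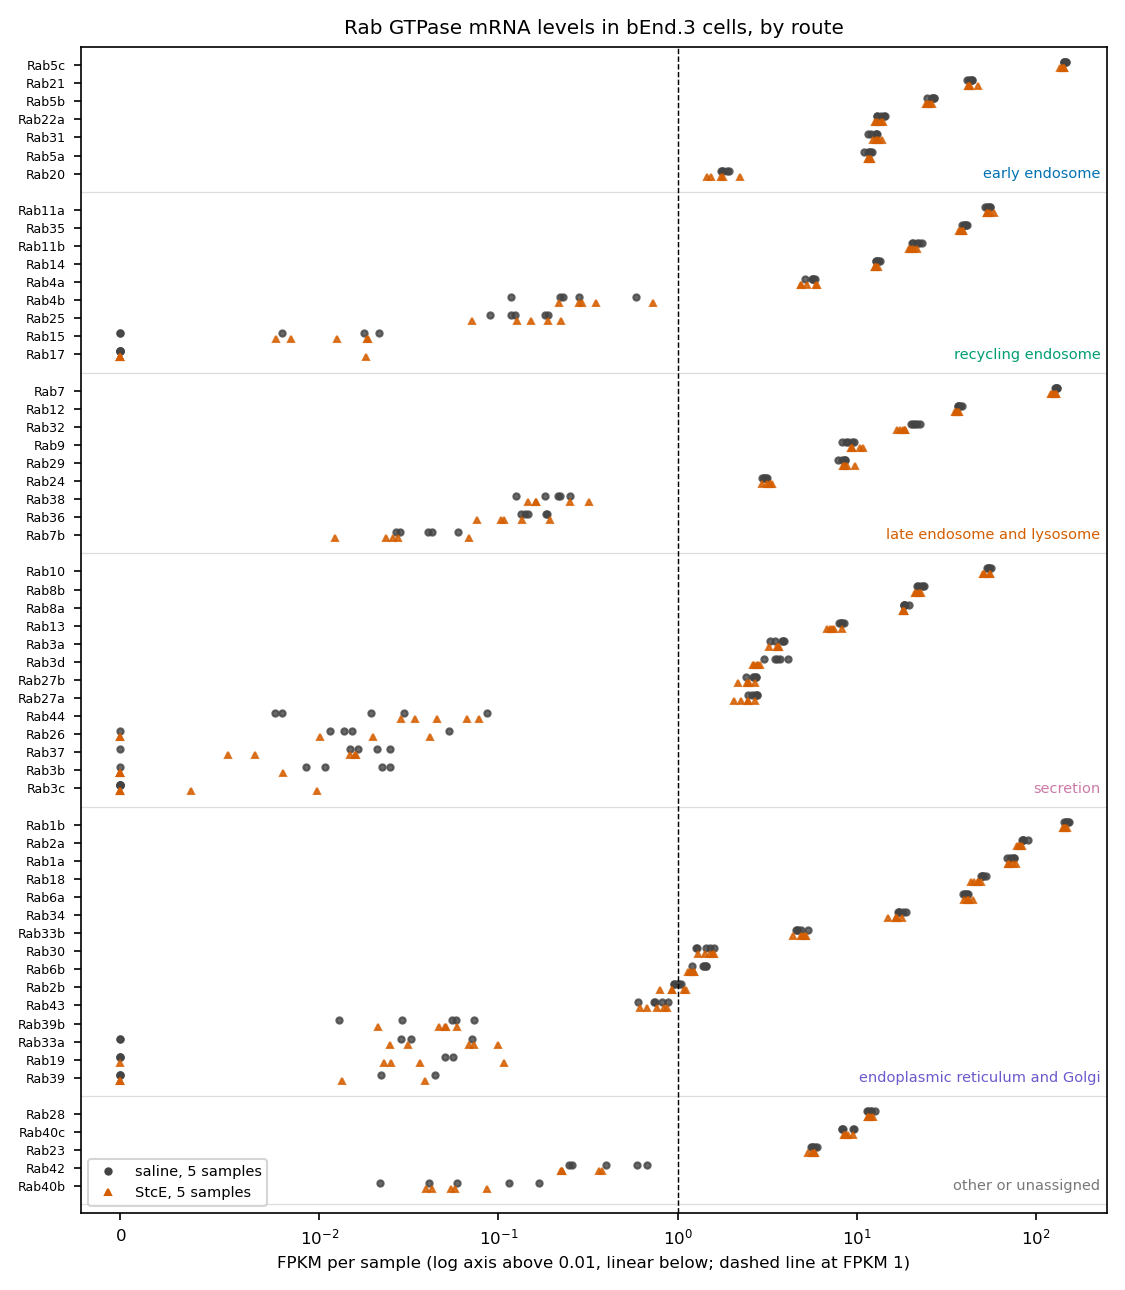
FPKM of all 58 Rab genes in each of the 5 saline samples (circles) and 5 StcE samples (triangles), grouped by route; the axis is logarithmic above 0.01 and linear below, and the dashed line marks the mean FPKM of 1 used as the filter. The levels run from about 150 for *Rab1b* down to genes with almost no fragments, and the groups lie close together for most Rabs.

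Averaged over the 10 samples, an FPKM of 1 or more was reached by 38 of the 58 Rabs, and these were tested. Of the 20 others, 11 were above 0 in every sample and 4 had at most 3 recovered fragments in every sample. *Rab17* of epithelial recycling was listed at 0 in all saline samples and had at most 1 fragment in any StcE sample, and *Rab3c* of exocytosis had at most 3 fragments. *Rab25*, the epithelial relative of *Rab11a*, had an FPKM of 0.14 ± 0.0432 in saline and 0.152 ± 0.0584 in StcE. *Rab38*, the close relative of *Rab32* in lysosome-related organelles, had 0.199 ± 0.0477 and 0.209 ± 0.0753. For these 4 genes, with at most 14 fragments in any sample, changes of the size seen in abundant Rabs were not detectable at this depth.

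After StcE, 3 of the 38 tested Rabs fell and 0 rose at an adjusted p under 0.05 (7.89% and 0%). Over all 11062 genes tested, 6.41% fell and 5.52% rose, so the share of Rabs that fell was near that of all genes. The 3 were *Rab3d* of regulated secretion, *Rab32* of lysosome-related organelles and *Rab18* of the endoplasmic reticulum and lipid droplets. At an unadjusted p under 0.05, 8 of the 38 Rabs were lower and 1 was higher, beside 1643 lower and 1428 higher of all 11062 tested genes. limma's voom on recovered fragments, which covered 35 of these Rabs, also called 0 higher and called *Rab3d* and *Rab32* lower. *Rab18* was not in that fit, because no recovered fragments were available for it.

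Most Rabs that did not pass the threshold lay slightly below 0. The log2 fold change on the log2(FPKM + 1) scale was below 0 in 27 of 38 tested Rabs (71.1%), against 50.4% of all tested genes, with a median of -0.0397 against -0.000663. The changes were small, with a median size of 0.0491 for Rabs against 0.0571 for all tested genes. The values of the saline and StcE samples did not overlap in 5 Rabs, *Rab3d*, *Rab32*, *Rab18*, *Rab2a* and *Rab5c*, each lower after StcE, and in 0 Rabs in the other direction. Over all tested genes, 5.8% were non-overlapping and lower and 4.85% were non-overlapping and higher.

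**Figure D2:**
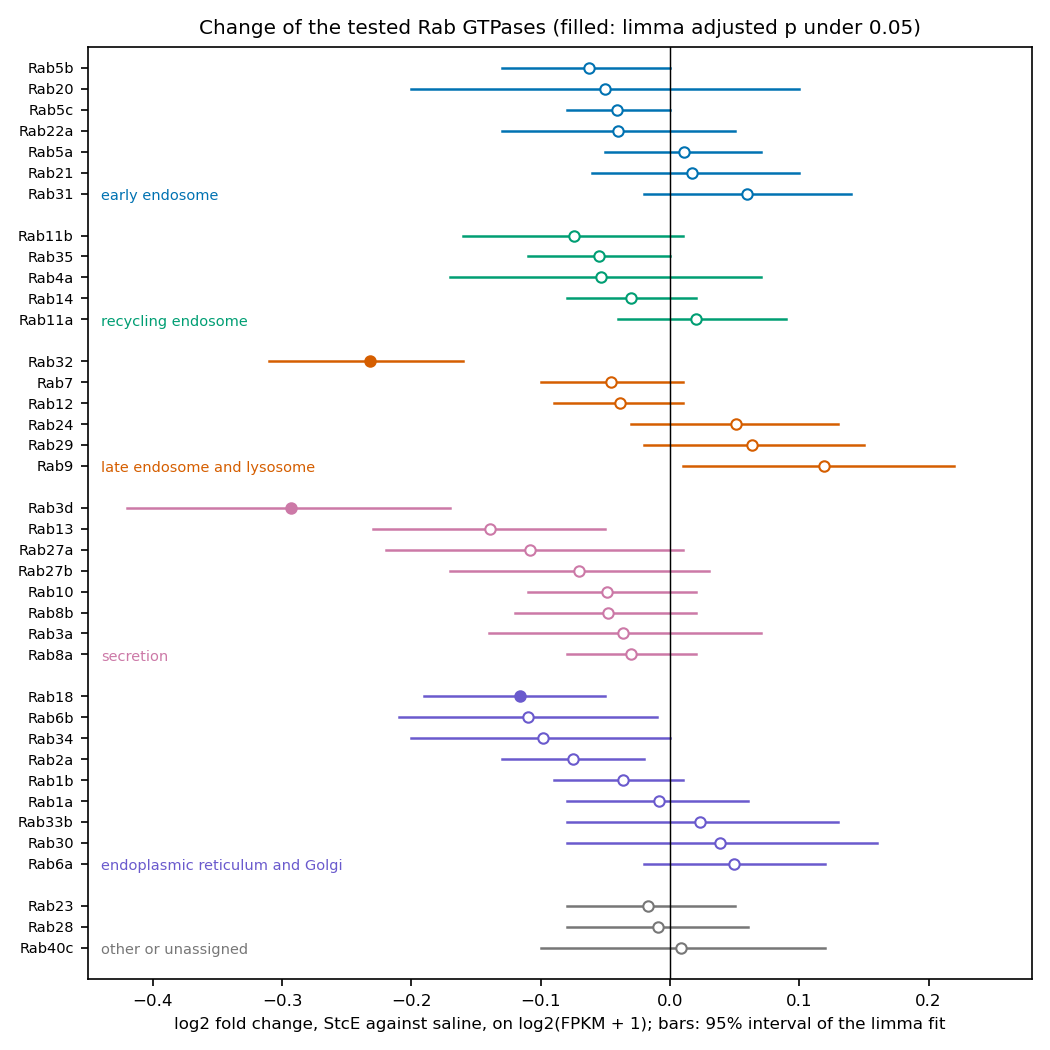
Log2 fold change of the 38 tested Rabs, StcE against saline, on the log2(FPKM + 1) scale, with the 95% interval of the limma fit as bars; colours mark the routes and filled points an adjusted p under 0.05. *Rab3d*, *Rab32* and *Rab18* are the filled points, all 8 secretory Rabs lie below 0, and *Rab9* has the highest value at 0.12.

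The early endosome is the entry sorting station, where *Rab5a*, *Rab5b* and *Rab5c* drive the fusion of incoming vesicles. None of its 7 Rabs passed the threshold, 0 had an unadjusted p under 0.05 in either direction, and the median log2 fold change was -0.0404. *Rab5c* made up 79.3% of the *Rab5* FPKM in both groups. Its FPKM was 143.7, 146.8, 144.6, 144.4 and 147.2 in saline replicates 1 to 5 and 143.6, 143.5, 142.2, 139.6 and 137.3 in StcE replicates 1, 2, 3, 5 and 6. The groups did not overlap, but the margin was narrow, and the log2 fold change of -0.04 ± 0.0199 (SE) did not pass the limma test (adjusted p = 0.206; exact permutation p = 0.00794, the smallest that 252 arrangements of 5 and 5 samples allow).

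The other early endosome Rabs overlapped between the groups. *Rab5b* had an FPKM of 26.3 ± 0.919 in saline and 25.2 ± 0.748 in StcE (log2 fold change -0.06, adjusted p = 0.193), and *Rab5a* had 11.7 ± 0.449 and 11.8 ± 0.208 (0.01, adjusted p = 0.841). *Rab31*, which carries cargo between the Golgi and endosomes, had the highest log2 fold change of the route, 0.06 with a 95% interval of -0.02 to 0.14. *Rab21*, a regulator of integrin uptake, had 43.0 ± 1.16 and 43.5 ± 2.44, and *Rab20* was the least expressed, at 1.83 ± 0.079 and 1.75 ± 0.296.

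Recycling Rabs return cargo to the plasma membrane, *Rab4a* and *Rab35* by a fast path and *Rab11a* and *Rab11b* through the perinuclear recycling compartment. Of 9 recycling Rabs, 5 were tested, none passed the threshold (1 was lower at an unadjusted p under 0.05) and 4 were below 0, with a median log2 fold change of -0.0535. *Rab11a* had an FPKM of 52.4 to 55.5 in saline and 53.4 to 58.8 in StcE (log2 fold change 0.02, 95% interval -0.04 to 0.09). *Rab11b* had 20.4 to 23.2 and 19.7 to 21.7 (-0.07, adjusted p = 0.243). The *Rab11a* share of the pair was 71.4% ± 1.34 in saline and 72.8% ± 1.44 in StcE.

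*Rab35* was the recycling Rab with the lowest unadjusted p, at 40 ± 0.977 in saline and 38.5 ± 0.864 in StcE (log2 fold change -0.05, adjusted p = 0.167). *Rab4a* ranged from 5.18 to 5.88 in saline and from 4.91 to 5.97 in StcE, so the StcE samples enclosed the saline ones (-0.05, adjusted p = 0.569). *Rab4b* was not tested, with an FPKM of 0.286 ± 0.177 and 0.376 ± 0.206. A near-identical match in another gene, *Gm21983*, covered 78.4% of its transcript, and 65% of its exon sequence was overlapped on the same strand. The match may be that overlap and not a copy elsewhere, and the counting could not separate it with certainty.

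Late endosomal Rabs steer cargo to lysosomes (*Rab7*), back to the Golgi (*Rab9*) or to lysosome-related organelles (*Rab32*). Of 9 genes, 6 were tested, 1 fell and 0 rose, and the others lay on both sides of 0 (median log2 fold change 0.0059). *Rab32* had an FPKM of 20.7, 21.7, 20.2, 21.1 and 22.5 in saline replicates 1 to 5 and 18.2, 18.6, 18.6, 16.9 and 17.4 in StcE replicates 1, 2, 3, 5 and 6. The groups were well apart, with the highest StcE sample below the lowest saline sample. The mean fell by 15.6%, from 21.2 ± 0.883 to 17.9 ± 0.741, a log2 fold change of -0.23 ± 0.0349 (SE; adjusted p = 0.00173; exact permutation p = 0.00794).

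Between 1000 and 1506 fragments per sample lay behind *Rab32*, whose transcript had neither a near-identical copy elsewhere nor an overlapping gene. Its adjusted p was 0.00101 to 0.0121 under every alternative but the fit with the replicate number as a block, where it was 0.0679 with a log2 fold change of -0.22. *Rab32* lies on chromosome 10 (GRCm38, chr10:10545002-10558265, minus strand).

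*Rab7* and *Rab9* moved to opposite sides of 0 without passing the threshold. *Rab7* ranged from 127.9 to 132.1 in saline and from 122.0 to 129.5 in StcE (log2 fold change -0.05, adjusted p = 0.233). *Rab9* had an FPKM of 9.0, 8.7, 9.62, 9.42 and 8.3 in saline and 10.8, 9.43, 10.4, 9.3 and 9.41 in StcE. StcE replicates 1 and 3 were above every saline sample and the other 3 lay within the saline range, and the log2 fold change of 0.12 ± 0.0485 (SE; adjusted p = 0.137; exact permutation p = 0.0714) was the highest of any tested Rab. A near-identical pseudogene copy, *Rab9b-ps1*, covered 41.9% of the *Rab9* transcript, and *Rab7* had such copies over 28.8%.

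Of the remaining late endosome Rabs, *Rab12*, which acts in receptor degradation, had a log2 fold change of -0.04, *Rab29*, a regulator of the kinase LRRK2, 0.06, and *Rab24*, of autophagy, 0.05 (adjusted p 0.321 to 0.377). *Rab24* is the least certain of these, because 62.4% of its exon sequence was overlapped on the opposite strand. A near-identical match in another gene, *Prelid1*, covered 34.9% of its transcript. The search took in both strands, so this match and the overlap may be the same sequence.

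**Figure D3:**
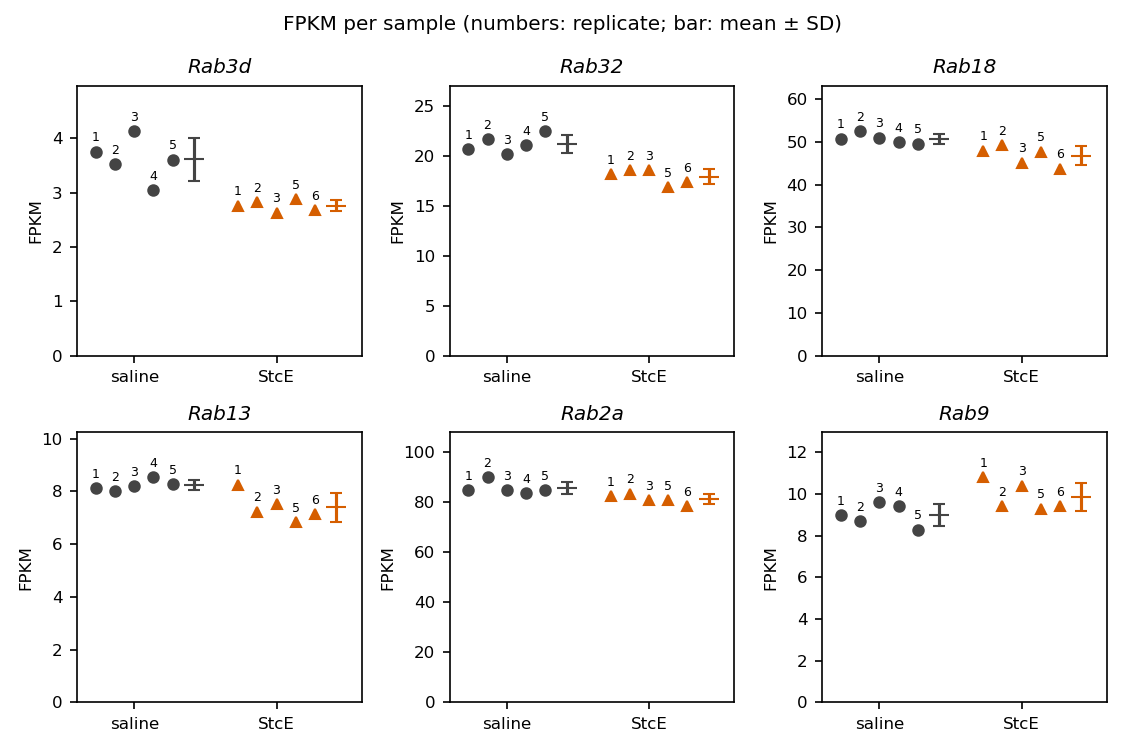
FPKM per sample of 6 Rabs, with the replicate number above each point and mean ± SD beside each group; the axes start at 0. For *Rab3d*, *Rab32*, *Rab18* and *Rab2a* every StcE sample (triangles) lies below every saline sample (circles), whereas *Rab13* and *Rab9* overlap.

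Secretory Rabs bring vesicles to the plasma membrane. *Rab3* and *Rab27* proteins serve regulated exocytosis, which in endothelium includes the Weibel-Palade bodies that store von Willebrand factor, and *Rab8*, *Rab10* and *Rab13* serve transport from the Golgi and endosomes to the surface, with *Rab13* known for the assembly of tight junctions. Of 13 genes, 8 were tested, 1 fell and 0 rose. All 8 log2 fold changes were below 0, with a median of -0.0597, and 2 of the 8 were lower at an unadjusted p under 0.05. Over all 11062 tested genes, 50.4% were below 0, and 1643 were lower and 1428 higher at that unadjusted p. At the adjusted threshold 6.41% of all tested genes fell, beside 12.5% of these 8.

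*Rab3d* had the largest change of any tested Rab. Its FPKM was 3.75, 3.52, 4.13, 3.04 and 3.6 in saline replicates 1 to 5 and 2.76, 2.82, 2.63, 2.88 and 2.68 in StcE replicates 1, 2, 3, 5 and 6. Saline replicate 4 was the lowest of its group and still above the highest StcE sample, and the saline samples spread more widely than the StcE samples. The mean fell by 23.8%, from 3.61 ± 0.394 to 2.75 ± 0.102, a log2 fold change of -0.29 ± 0.0558 (SE; adjusted p = 0.00626; exact permutation p = 0.00794). The log2 ratio of the mean FPKM, which the pseudocount does not shrink, was -0.39.

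Between 272 and 479 fragments per sample lay behind *Rab3d*, and its transcript likewise had neither a copy nor an overlapping gene. Its adjusted p was under 0.05 in all 20 alternatives (0.00117 to 0.0389), the replicate block included. *Rab3d* lies on chromosome 9 (GRCm38, chr9:21907491-21918192, minus strand).

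*Rab3a*, the relative of *Rab3d* best known from synaptic vesicles, was expressed at about the same level and did not pass the threshold. Its FPKM was 3.68 ± 0.283 in saline and 3.56 ± 0.19 in StcE (log2 fold change -0.04, adjusted p = 0.667). Of the *Rab3* FPKM, *Rab3d* made up 49.4% ± 3.15 in saline and 43.6% ± 1.98 in StcE, and *Rab3a* 50.4% ± 3.04 and 56.3% ± 1.92. *Rab3b* and *Rab3c* together stayed under 0.4% in every sample.

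*Rab13* came closest to the threshold without passing it. Its FPKM was 8.13, 8.01, 8.21, 8.53 and 8.28 in saline replicates 1 to 5 and 8.26, 7.24, 7.52, 6.83 and 7.13 in StcE replicates 1, 2, 3, 5 and 6. StcE replicate 1 lay within the saline range and the other 4 lay below it. The log2 fold change was -0.14 ± 0.0415 (SE; adjusted p = 0.0506; exact permutation p = 0.0317). Without StcE replicate 1, the sample that overlapped, it was -0.18 with an adjusted p of 0.00721. With any other sample left out it did not pass (adjusted p 0.0658 to 0.106), nor with the replicate block (0.24).

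The other secretory Rabs showed smaller values. *Rab27a*, which marks Weibel-Palade bodies, ranged from 2.47 to 2.78 in saline and from 2.07 to 2.72 in StcE (log2 fold change -0.11, adjusted p = 0.205), and *Rab27b* had 2.63 ± 0.138 and 2.46 ± 0.189 (-0.07, adjusted p = 0.357). *Rab10* (-0.05), *Rab8b* (-0.05) and *Rab8a* (-0.03) had adjusted p of 0.327 to 0.443. Their 95% intervals ran from -0.12 to 0.02 at the widest.

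The endoplasmic reticulum and Golgi Rabs were the largest group, with 9 of 15 tested, 1 that fell and 0 that rose (median log2 fold change -0.0367). *Rab18*, which acts on the endoplasmic reticulum and on lipid droplets, had an FPKM of 50.7, 52.5, 50.9, 49.9 and 49.5 in saline replicates 1 to 5 and 47.9, 49.2, 45.1, 47.7 and 43.7 in StcE replicates 1, 2, 3, 5 and 6. The groups did not overlap, although StcE replicate 2 came close to the lowest saline sample. The mean fell by 7.83%, from 50.7 ± 1.15 to 46.7 ± 2.21, a log2 fold change of -0.12 ± 0.0323 (SE; adjusted p = 0.0388; exact permutation p = 0.00794).

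The *Rab18* call was the least steady of the 3, and 2.58% of its transcript had a near-identical copy and 4.45% overlapped another gene on the same strand. With 1 sample left out, it held without saline replicate 5 (adjusted p = 0.0475) or StcE replicate 2 (0.0227) and was lost without any of saline replicates 1 to 4 or StcE replicates 1, 3, 5 and 6 (0.0511 to 0.0961). It was also lost with a lower or no filter on FPKM (0.0534 and 0.0923), with scaling by total fragments (0.0573) and with the replicate block (0.147).

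*Rab2a*, of the Golgi and its links to endosomes, was the other non-overlapping gene of the route. Its FPKM was 84.9, 90.0, 85.0, 83.8 and 84.8 in saline and 82.6, 83.5, 81.0, 81.0 and 78.5 in StcE. The highest StcE sample fell just short of the lowest saline sample, and the log2 fold change of -0.07 did not pass the limma test (adjusted p = 0.078; exact permutation p = 0.00794). Its paralog *Rab2b* had an FPKM of 0.992 ± 0.0368 and 0.973 ± 0.132, just under the filter. *Rab6b*, at 1.29 on average, was the tested Rab just above it.

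*Rab1a* and *Rab1b*, the Rabs of transport from the endoplasmic reticulum to the Golgi, had log2 fold changes of -0.01 and -0.04 (adjusted p = 0.895 and 0.324). *Rab6a*, of retrograde transport to and within the Golgi, had 40.6 ± 1.04 in saline and 42.1 ± 1.73 in StcE (0.05, adjusted p = 0.32), while *Rab6b* had 1.38 ± 0.105 and 1.2 ± 0.0431 (-0.11, adjusted p = 0.142). *Rab34*, known for lysosome positioning and cilia, had 17.7 ± 0.749 and 16.5 ± 1.11 (-0.10, adjusted p = 0.175). *Rab30* and *Rab33b*, both of the Golgi, had values of 0.04 and 0.02 with intervals spanning 0. The 3 tested Rabs without a route, *Rab23*, *Rab28* and *Rab40c*, had log2 fold changes of -0.02, -0.01 and 0.01.

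Whether close relatives changed unequally was asked for the 11 pairs in which both genes were tested, as the difference of their log2(FPKM + 1) values in each sample. The paralog balance differed between the groups in 2 pairs. The log2 ratio of *Rab6a* to *Rab6b* was 4.07 to 4.19 in the saline samples and 4.24 to 4.35 in the StcE samples. The difference of 0.16 had an exact permutation p of 0.00794 (adjusted over the 11 pairs, 0.0437), and the groups did not overlap.

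The log2 ratio of *Rab5a* to *Rab5b* was -1.14 to -1.09 in saline and -1.08 to -0.98 in StcE, a difference of 0.07 with the same exact permutation p and the same adjusted value. In the *Rab3a* to *Rab3d* pair the difference was larger, 0.26, but saline replicate 4 lay within the StcE range (exact permutation p = 0.0238, adjusted 0.0873). Without that sample the *Rab3* difference was 0.31 with an adjusted permutation p of 0.0437. It was the only saline sample within the StcE range, so leaving it out removed the overlap by itself, and no conclusion is drawn. The pair passed in 1 of 11 alternatives, with adjusted permutation p of up to 0.146.

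The other 8 pairs, *Rab1a* with *Rab1b*, *Rab5a* and *Rab5b* each with *Rab5c*, *Rab8a* with *Rab8b*, *Rab10* with *Rab13*, *Rab11a* with *Rab11b*, *Rab22a* with *Rab31* and *Rab27a* with *Rab27b*, had differences of -0.10 to 0.09 and adjusted p of 0.175 or more. The *Rab6* call was lost without any of saline replicates 1, 2, 3 and 5 (permutation p adjusted over the 11 pairs, 0.0873). The *Rab5* call was lost without any 1 of the 5 saline samples (0.116 to 0.146), while both held without any 1 StcE sample. With a saline sample left out, 0.0873 is the least that a pair alone at the smallest permutation p can reach. An adjusted p of 0.0437 needs 2 pairs at that smallest p. The *Rab6* groups still did not overlap in those fits, so the lost call does not show that it rested on single samples. Sequence shared with other genes made up 39.4% of the *Rab6a* transcript, 20.4% of *Rab5b* and 9.34% of *Rab5a*. In this respect these ratios are less certain than that of *Rab3a* to *Rab3d*, neither of which had a copy.

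**Figure D4:**
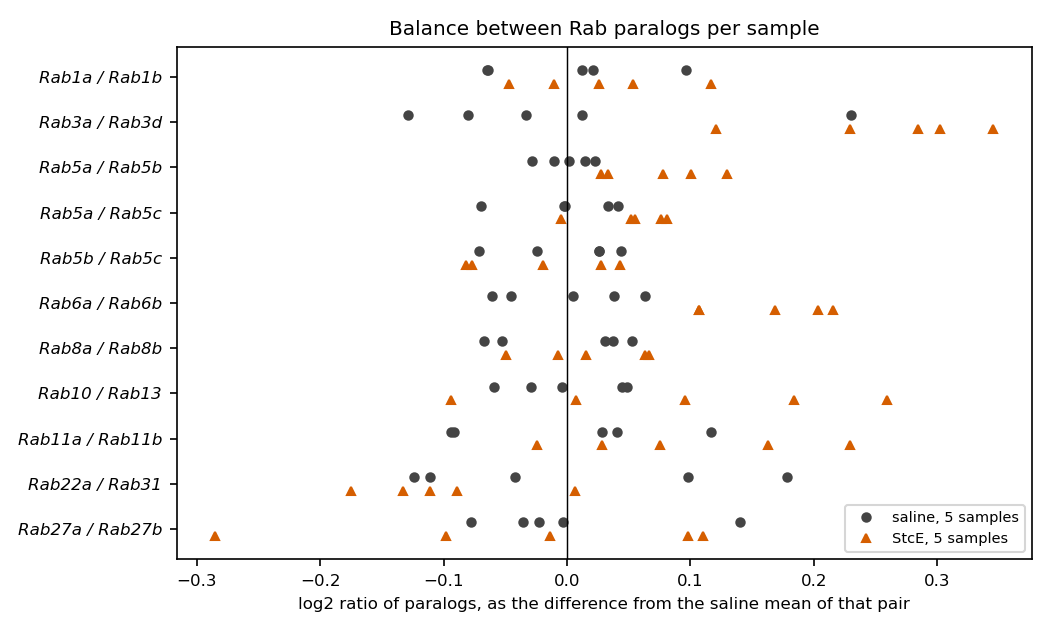
Log2 ratio of 11 Rab paralog pairs in each saline sample (circles) and StcE sample (triangles), on the log2(FPKM + 1) scale and as the difference from the mean saline ratio of the pair. The groups do not overlap for *Rab6a* to *Rab6b* and *Rab5a* to *Rab5b*, and 1 saline sample of *Rab3a* to *Rab3d* lies among the StcE samples.

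The genes that run the Rab cycle and carry out its output were read from the same fit, as 8 lists of partners. Of 186 partner genes in the table, 161 were tested, of which 19 fell and 3 rose (11.8% and 1.86%, against 6.41% and 5.52% of all tested genes), with a median log2 fold change of -0.0259. With any 1 sample left out, 7 (without saline replicate 4) to 13 (without saline replicate 5) partners fell. In those fits 0 to 5 (without StcE replicate 2) rose. Calls over all 11062 genes were fewer as well, 793 (without StcE replicate 3) to 1255 (without StcE replicate 2), against 1320 with all 10 samples. The fit with the replicate number as a block, on 8 samples, called 0 partners in either direction and 349 of all 11062 genes. The 5 that held in every setting but the block were *Tbc1d9b*, *Rufy1*, *Dennd5a*, *Vps41* and *Exoc4*.

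Among the regulators of the cycle, 4 of 33 GTPase-activating proteins fell and 0 rose. *Tbc1d9b*, a GTPase-activating protein reported to act on *Rab11a*, had an FPKM of 27.6, 25.9, 27.6, 27 and 25.7 in saline and 23.1, 24.3, 23.0, 24.5 and 24.2 in StcE (log2 fold change -0.16 ± 0.0293, SE; adjusted p = 0.00476). The groups did not overlap. *Tbc1d9*, *Tbc1d5* and *Tbc1d13* were the other members that fell (-0.17, -0.13 and -0.11; adjusted p 0.0381 to 0.048).

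Of 35 exchange factors, 3 fell and 1 rose. *Dennd5a*, an exchange factor of *Rab39* and a *Rab6* binder, had 26.1 to 27.6 in saline and 23.8 to 25.2 in StcE, with no overlap (-0.13, adjusted p = 0.00522). *Sbf2*, an exchange factor of *Rab21* and *Rab28*, and *Trappc9*, a subunit of the TRAPP complex, fell by 0.13 and 0.12 on the log2 scale (adjusted p = 0.0471 and 0.0415). *Trappc4*, another TRAPP subunit, rose (0.12, adjusted p = 0.0335).

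Of 11 genes of prenylation, escort and extraction, 1 fell and 1 rose. *Rabggtb* encodes the catalytic subunit of a transferase that attaches prenyl groups to Rabs. Its FPKM was 31.7, 35.1, 32.2, 32.1 and 31.9 in saline and 35.6, 34.1, 36.9, 35.2 and 35.2 in StcE. Saline replicate 2 lay within the StcE range and the other 4 lay below it (0.12 ± 0.0316, SE; adjusted p = 0.0357). *Rabac1*, the prenylated Rab acceptor, went the other way, from 71.0 ± 0.705 to 66.9 ± 2.06 (-0.09, adjusted p = 0.0374).

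Effectors were counted by route. For early endosomes 3 of 15 fell and 0 rose, for recycling 4 of 14 fell and 1 rose, for late endosomes 2 of 17 fell and 0 rose, for secretion 2 of 19 fell and 0 rose, and for the endoplasmic reticulum and Golgi 0 of 17 passed in either direction, although 1 was lower and 1 higher at an unadjusted p under 0.05. Over all tested genes 6.41% fell and 5.52% rose, and no list was tested against another.

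The early endosome members that fell were *Snx15*, a sorting nexin, *Pik3r4*, a subunit of the lipid kinase complex that makes the phosphoinositide of early endosomes, and *Vps8*, a subunit of the CORVET tether (-0.18, -0.16 and -0.15; adjusted p 0.0304 to 0.0367). Of the recycling effectors, *Rufy1*, which binds *Rab4a* and *Rab14*, ranged from 13.7 to 14.3 in saline and from 12.3 to 13.1 in StcE (-0.14, adjusted p = 0.00403). *Exoc6*, an exocyst subunit that binds *Rab11a*, *Rab11fip5* and *Sh3tc1* also fell (-0.18, -0.13 and -0.13; adjusted p 0.0154 to 0.0392), and *Wdr44*, a *Rab11a* binder, rose (0.14, adjusted p = 0.0462).

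*Vps41*, a subunit of the HOPS complex that tethers late endosomes to lysosomes, had 10.9 ± 0.214 in saline and 9.8 ± 0.336 in StcE (-0.14, adjusted p = 0.00735), with no overlap. *Exoc4*, an exocyst subunit of vesicle tethering at the plasma membrane, had 18 ± 0.339 and 16.2 ± 0.568 (-0.14, adjusted p = 0.00842), also with no overlap. *Fyco1*, a *Rab7* effector that links late endosomes to kinesin, and *Mical1*, an actin-oxidising enzyme that binds *Rab8a* and its relatives, fell by 0.13 and 0.15 on the log2 scale (adjusted p = 0.05, just under the threshold before rounding, and 0.0292).

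**Figure D5:**
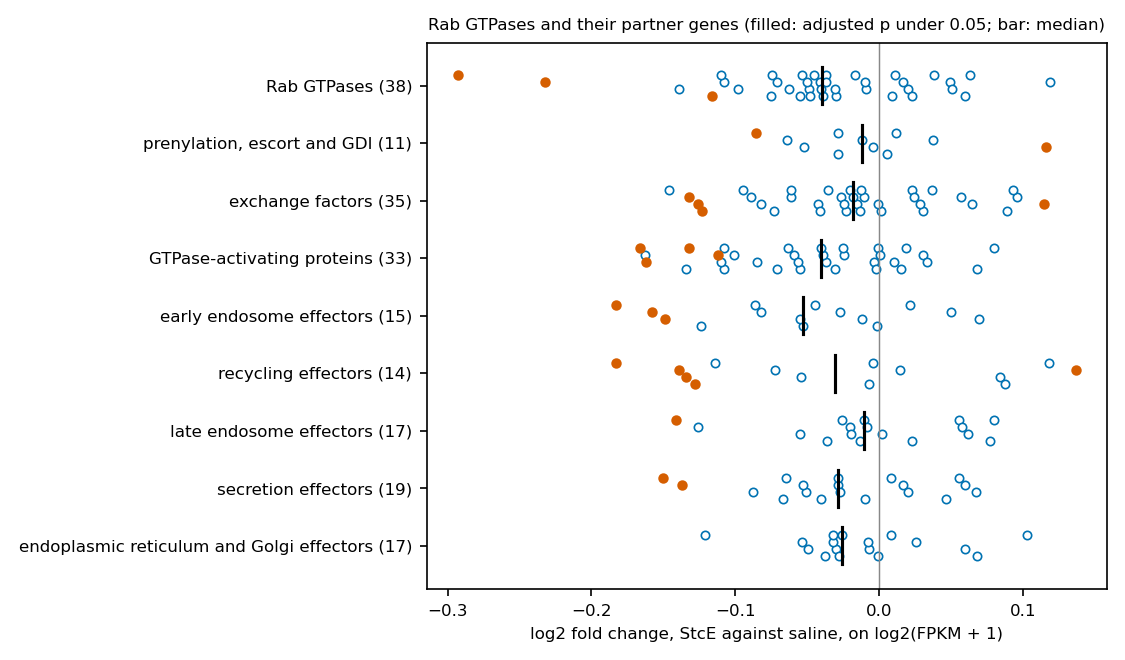
Log2 fold change on the log2(FPKM + 1) scale of the 38 tested Rabs and of the tested genes in 8 partner lists, with filled points at an adjusted p under 0.05 and a bar at the median of each list. Filled points lie mostly to the left of 0, with *Rabggtb*, *Trappc4* and *Wdr44* to the right, and the median of every list is below 0.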

How the data were processed

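The authors aligned trimmed read pairs (2 × 150 bases) from poly-A selected, dUTP strand-marked libraries to GRCm38 and deposited FPKM per gene and sample for 27024 rows with a gene name (22874 further rows were empty). The submitters' processing notes name HISAT2 2.0.5, featureCounts 1.5.0-p3 and DESeq2 1.32.0, and the annotation release and use of strand in counting are not given in the sources used here. With GENCODE vM21 exon lengths, 96.6% of the values were whole fragments (within 0.05 fragments), which gave the depths and the fragments of 55 of the 58 Rabs, and fragments cover counting error only.

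limma 3.58.1 (R 4.3.3; lmFit, eBayes with trend) compared the groups on log2(FPKM + 1), without covariates, for the 11062 genes whose mean FPKM was 1 or more, and p-values were adjusted by Benjamini-Hochberg over all of them. Exact two-sided permutation tests used all 252 arrangements of the samples. A fold change on this scale understates that of low genes. Data were simulated for the comparison of StcE with saline over 11062 genes. The fit called 109 of 200 genes changed by 0.2 on the log2 scale, with 3 false calls, and 187 of 200 changed by 0.5, with 5. It called 0 when none was changed. The simulated noise was independent between genes, so effects shared by the genes of a sample were not tested. More genes were called in the data (1320 of 11062) than were changed in the simulation, so its share of calls need not hold for the data. Changes under 0.2, such as the median size of 0.0491 for Rabs, were not simulated. Copies were searched with BLAST 2.17.0 (at least 95% identity over at least 150 bases), and coding ends came from the principal transcript of each gene.

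The Rabs, routes and partner lists were chosen with earlier results of these data known. Named genes are every Rab past the threshold, the most abundant Rab of each route, standard route markers, paralog pairs, and up to 5 partners per list and direction; other Rabs were named after their values were seen. Replicates with the same number (1, 2, 3 and 5) did not deviate together. The alternatives were another pseudocount, filters, scalings, voom, robust fits, array weights, the replicate block and each sample left out. A fit of the 8 blocked samples with no block was added after seeing the data.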

Additional observations from a re-analysis of the deposited data

Results flagged for a closer look

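In 94 groups of 5 samples (each named Rab and partner gene in each condition), 7 held a sample whose gap to its nearest neighbour exceeded 0.71 of the range of the group, where chance gives about 1 in 20, or 4.7. Of the Rabs, *Rab3a* in StcE replicate 2 had an FPKM of 3.22, below the 3.61 to 3.68 of the other StcE samples. *Rab6b* in saline replicate 1 had 1.2, below 1.38 to 1.45, and *Rab8a* in saline replicate 5 had 19.6, above 18.3 to 18.6. Of the partners, *Mical1* in StcE replicate 5 had 2.73 against 2.49 to 2.55, and *Rab11fip5* in the same sample had 23.1 against 21.2 to 21.7. *Rabggtb* in saline replicate 2 had 35.1 against 31.7 to 32.2, and *Tbc1d13* in saline replicate 5 had 17.9 against 19.6 to 19.9.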

How the results depend on the processing

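The count of Rabs that fell was 1 to 4 and that of Rabs that rose was 0 over 20 alternatives, and the median log2 fold change of the Rabs was -0.0478 to -0.0299. Of 497 refits of 25 named Rabs, 469 kept their direction and their side of the threshold, 14 lost the call, 3 gained it and 11 turned direction, all in Rabs close to 0 and far from the threshold. *Rab1a* was 0.000463 with total fragment scaling and 0.000524 with voom, and *Rab5a* -0.00475 both with the replicate block and without its pairing term. With 1 sample left out, the log2 fold change was -0.03 to 0.00494 for *Rab1a*, -0.03 to 0.01 for *Rab28*, -0.00354 to 0.03 for *Rab11a* and -0.01 to 0.02 for *Rab5a*, and the difference in the ratio of *Rab27a* to *Rab27b* was -0.07 to 0.02. *Rab13* was called in 3 of 20 alternatives, with the robust fit and array weights (adjusted p = 0.0491 and 0.0226) and without StcE replicate 1. Same-numbered samples did not deviate together (correlations -0.0966 to 0.0538). The fit with the replicate number as a block called 1 Rab lower, *Rab3d*, and 0 partners in either direction. The same 8 samples without the pairing term called 2 Rabs lower, 5 partners lower and 0 higher. Over all 11062 genes these fits called 349 and 885, against 1320 in the main fit. With a minimum mean FPKM of 0.1, 11 partners fell, where 1120 of 16024 tested genes were called in either direction. With no filter 7 partners fell and 0 rose, where 801 of 27024 were called. More genes were tested in these settings than the 11062 of the main fit, of which 1320 were called. With 1 sample left out, 2 to 3 Rabs and 7 to 13 partners fell, 0 to 5 partners rose and 0 to 2 paralog pairs passed. Over all 11062 genes those fits called 793 to 1255. The cause of these differences was not tested. Voom left out 3 tested Rabs without whole fragments, *Rab1b*, *Rab11b* and *Rab18*. The filter at a mean FPKM of 1, and not depth alone, set aside 20 Rabs. *Rab2b* among them had 91 to 158 fragments per sample, while 4 had at most 3.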
